A study of Bos taurus with 16 samples.

Results

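The trypsin gene PRSS2 and 4 further gene IDs were followed calf by calf in liver and skeletal muscle, 5 of 27607 Ensembl IDs in the count table. They were selected on their counts in these libraries, as genes near absent in calves of one embryo origin, so the difference between origins is given here as a description without a test. The description held to different degrees. PRSS2 was near absent in both organs of the calves from embryos produced in vivo (MOET). LOC100139916 and ENSBTAG00000052992 were near absent in MOET muscle, and ENSBTAG00000009836 was near absent in the muscle of the calves from embryos produced in vitro (IVP). ENSBTAG00000026768 was lower in IVP muscle but still counted in every calf.

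PRSS2 encodes a trypsinogen, the inactive precursor of the digestive protease trypsin. Trypsinogens are made mainly by the acinar cells of the exocrine pancreas, stored in granules and cleaved to active trypsin in the small intestine by enteropeptidase, and neither liver nor skeletal muscle is a usual site of their production. LOC100139916 (ENSBTAG00000052397) is annotated as interleukin 32-like. Interleukin 32 is a cytokine known from lymphocytes and other activated cells, where it is linked to the release of inflammatory mediators. The 3 other IDs were paired with no name in the sources used here, and no role is given for them.

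All 8 animals were Holstein bull calves born and reared in 1 nucleus herd, then moved to hospital stables before euthanasia. Each calf gave 1 liver and 1 muscle library of polyadenylated RNA. The 4 IVP calves (3208, 3209, 5833 and 5841) came from oocytes collected by ovum pick-up, fertilised and cultured in serum-free medium, and were sampled at 98 to 103 days of age. The 4 MOET calves (3213, 3217, 3218 and 5932) came from embryos flushed after superovulation and insemination, and were sampled at 102 to 104 days, except calf 3213 at 144 days. All IVP calves had the same donor cow, here donor A. Calves 3208 and 3209 of the IVP group and 3217 and 3218 of the MOET group shared both this donor and a sire. IVP calves 5833 and 5841 had donor A with another sire, whereas MOET calves 3213 and 5932 had a second donor and a sire each of their own.

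Library totals ran from 22758137 to 25626474 counts, so that 3 counts, taken as the floor of detection, were 0.117 to 0.132 counts per 1000000 (CPM). The study controlled for age with the sva package, and the sources used here do not say whether the deposited values were taken before or after that step. Set against the average of calves 3217, 3218 and 5932, calf 3213 deviated by a median log2 value of 0.0219 for liver and 0.0137 for muscle genes. Counting noise by itself would give 0.0444 and 0.0467. The other calves differed from their groups by 0.0992 to 0.38 in liver and 0.122 to 0.189 in muscle. Calf 3213 was therefore not counted as a separate replicate, and means ± SD are over 4 IVP and 3 MOET calves. The tissue labels held: the summed counts of 5 muscle fibre genes were 2 to 23 in liver and 3087493 to 3663000 in muscle, and the hepatocyte gene APOB had 13035 to 35165 counts in liver and 0 in every muscle library.

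In the liver of the IVP calves PRSS2 (ENSBTAG00000021565) had 7162 counts in calf 3208, 9691 in 3209, 8712 in 5833 and 12185 in 5841. The MOET livers held a single count, in calf 3213, and 0 in calves 3217, 3218 and 5932. The groups lay far apart, with nothing between 1 and 7162 counts. The level in IVP liver was 398.2 ± 92.8 CPM (SD, n = 4), a coefficient of variation of 23.3%. The ratio of the summed counts, IVP over MOET, was 37590 with a 95% exact counting interval of 6745 to 1485000. The interval is wide because it rests on 1 MOET count, that of calf 3213. Such intervals and floors cover counting error only. The ratios sum all MOET calves, calf 3213 included, and their intervals take the deposited values as raw counts. The fitted log2 fold change was 14.49 (SE 0.547), a value that depends on the prior used for near-zero counts.

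Muscle repeated the split for PRSS2 at a lower level. Counts were 534, 426, 576 and 461 in IVP calves 3208, 3209, 5833 and 5841, and 3, 0, 5 and 0 in MOET calves 3213, 3217, 3218 and 5932. The highest MOET muscle had 5 counts and the lowest IVP muscle 426, and calves 3217 and 5932 had no PRSS2 count in either organ. The IVP mean was 19.7 ± 2.56 CPM (SD, n = 4), and the coefficient of variation of 13.0% was smaller than in liver. The ratio of summed counts was 244.4 (95% counting interval 123.8 to 566.9), and the fitted log2 fold change 8.17 (SE 0.416). The calf with the highest PRSS2 count in liver, 5841, had the second lowest in muscle. In bulk tissue of this kind, fewer expressing cells and less RNA per cell cannot be told apart.

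PRSS2 had the same split among the calves that shared both parents, which its listing on all calves had fixed in advance. In liver, IVP calves 3208 and 3209 had 7162 and 9691 counts and MOET calves 3217 and 3218 had 0 and 0. In muscle the same calves had 534 and 426 against 0 and 5. A fit on these 4 calves alone gave a log2 fold change of 16.06 in liver and 7.51 in muscle. Within the IVP group, calves 3208 and 3209 and calves 5833 and 5841, of another sire, had overlapping ranges. These were 7162 to 9691 against 8712 to 12185 in liver and 426 to 534 against 461 to 576 in muscle. The part of parentage was not tested.

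LOC100139916 was higher in IVP calves in both organs, but near absent only in MOET muscle. In liver it had 238, 295, 114 and 264 counts in IVP calves 3208, 3209, 5833 and 5841, and 46, 33, 52 and 55 in MOET calves 3213, 3217, 3218 and 5932. The groups did not overlap, although calf 5833 stood well below the other IVP calves at 2.07 times the count of the highest MOET calf. The means were 9.56 ± 3.26 CPM (SD, n = 4) and 1.97 ± 0.470 CPM (SD, n = 3), the ratio of summed counts 4.88 (95% counting interval 4.16 to 5.74) and the log2 fold change 2.42 (SE 0.355). In muscle the IVP calves had 71, 64, 79 and 98 counts and the MOET calves 2, 4, 0 and 0. Here the ratio was 50.9 (23.1 to 139.8) and the log2 fold change 5.54 (SE 0.549), with means of 3.08 ± 0.588 CPM (SD, n = 4) against 0.0526 ± 0.0911 CPM (SD, n = 3), the latter under the floor. Among the calves with the same parents the log2 fold changes of LOC100139916 were 2.68 in liver and 4.99 in muscle.

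**Figure D1:**
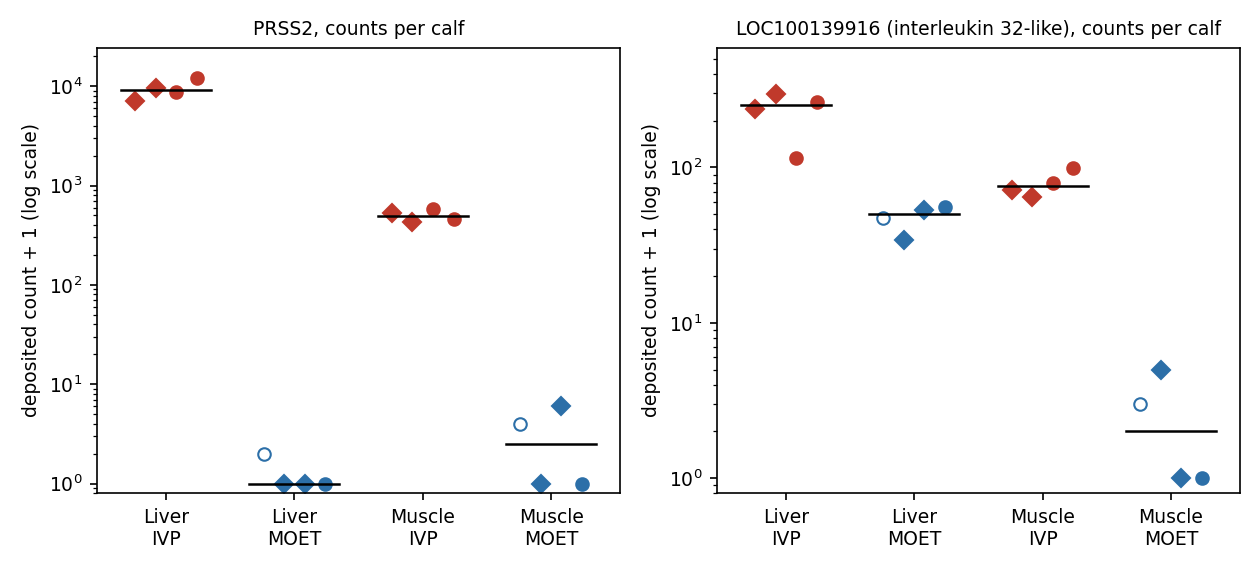
Deposited counts plus 1 on a log scale for PRSS2 (left) and LOC100139916 (right), 1 point per calf, in liver and muscle of IVP (red) and MOET (blue) calves; bars are group medians, diamonds the 4 calves with the same donor and sire, and open circles MOET calf 3213. PRSS2 sits between 7162 and 12185 in IVP liver against 0 to 1 in MOET liver, while LOC100139916 keeps 33 to 55 counts in MOET liver and 0 to 4 in MOET muscle.

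ENSBTAG00000052992 was counted in muscle alone. All 8 liver libraries had 0 counts. In muscle the IVP calves 3208, 3209, 5833 and 5841 had 40, 27, 67 and 45 counts, and the MOET calves 1 (calf 3213), 0, 0 and 0. The groups did not overlap, and the IVP mean was 1.77 ± 0.654 CPM (SD, n = 4). The ratio of summed counts was 175.3 with a 95% counting interval of 31.1 to 6961, again resting on 1 MOET count, that of calf 3213. The fitted log2 fold change was 7.93 (SE 0.705), and 8.07 among the calves with the same parents.

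ENSBTAG00000009836 ran the other way in muscle. IVP calves 3208, 3209, 5833 and 5841 had 3, 9, 5 and 0 counts, and MOET calves 3213, 3217, 3218 and 5932 had 118, 123, 160 and 231. All MOET muscles lay above all IVP muscles, at 6.82 ± 2.24 CPM (SD, n = 3) against 0.168 ± 0.151 CPM (SD, n = 4). MOET over IVP, the ratio of summed counts was 37.97 (95% counting interval 23.5 to 65.6), and the log2 fold change, IVP over MOET, was -5.31 (SE 0.441). The liver showed no such split. IVP livers had 105, 582, 35 and 268 counts and MOET livers 61, 125, 110 and 39, so that the groups overlapped and the IVP range enclosed the MOET range. Both the highest and the lowest liver count belonged to IVP calves, and the means were 10.4 ± 10.2 CPM (SD, n = 4) and 3.88 ± 1.98 CPM (SD, n = 3).

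The pattern of ENSBTAG00000026768 was similar but shallower. Its muscle counts were 6, 10, 18 and 16 in IVP calves 3208, 3209, 5833 and 5841 and 63, 55, 64 and 90 in MOET calves 3213, 3217, 3218 and 5932. The groups did not overlap, yet every IVP muscle lay above the floor of 3 counts. The means were 0.495 ± 0.218 CPM (SD, n = 4) and 2.77 ± 0.744 CPM (SD, n = 3), with a ratio of summed counts of 5.56 (95% counting interval 4.10 to 7.67) and a log2 fold change of -2.51 (SE 0.295). In liver the counts overlapped, 35, 107, 24 and 52 in IVP calves and 26, 30, 27 and 33 in MOET calves. The IVP livers stood in the same order for both genes, highest in calf 3209, then 5841, 3208 and 5833, whereas in the MOET livers the orders differed. Among the calves with the same parents the muscle log2 fold changes were -4.53 for ENSBTAG00000009836 and -2.88 for ENSBTAG00000026768.

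**Figure D2:**
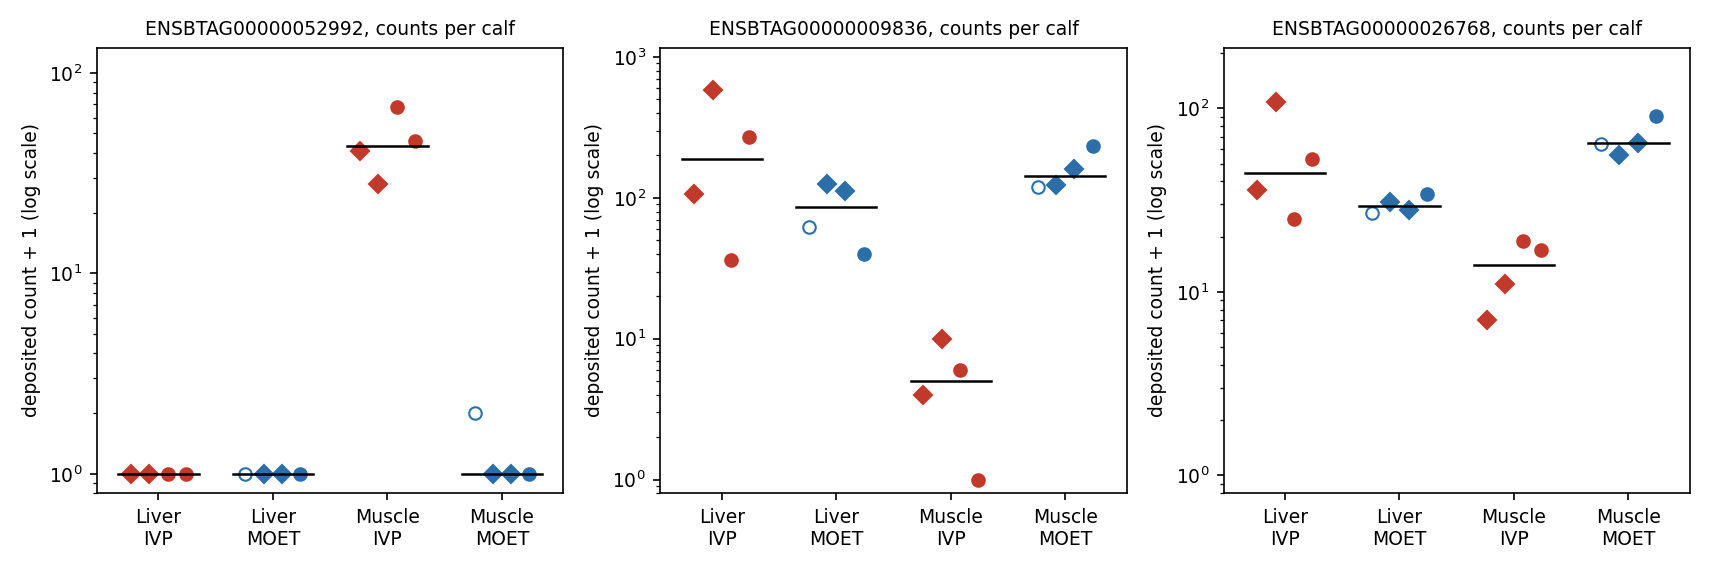
Deposited counts plus 1 on a log scale for the 3 IDs without a name, 1 point per calf, in liver and muscle of IVP (red) and MOET (blue) calves; bars are group medians, diamonds the 4 calves with the same donor and sire, and open circles MOET calf 3213. ENSBTAG00000052992 is at 0 in all livers, and the other 2 IDs overlap between origins in liver but not in muscle, where MOET calves are higher.

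The IDs were listed for this shape, so its frequency in the whole table is a description. The criterion was all calves of 1 origin at 10 counts or fewer and all of the other at 50 or more. Of 27607 IDs, PRSS2 alone met it in liver, with IVP calves higher. In muscle it was met by PRSS2 and LOC100139916 with IVP calves higher and by ENSBTAG00000009836 with MOET calves higher. ENSBTAG00000052992 (27 to 67 counts against 0 to 1) and ENSBTAG00000026768 (55 to 90 against 6 to 18) fell outside it. Just outside in liver was LOC112449459, annotated as the small nucleolar RNA SNORA31, at 49 to 261 counts (IVP) against 0 to 1 (MOET), and TRIM31, a ubiquitin ligase gene, with 40 to 83 against 1 to 5. In muscle ENSBTAG00000040399 was at 20 to 29 counts with MOET and 2 to 6 with IVP origin.

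Groups that merely do not overlap were common. Overlap was read on deposited counts, not scaled for depth or composition. In liver the median log2 fold change of all genes, IVP over MOET, was -0.16 on library totals and -0.004 with the scaling of the fits (TMM). The shares of genes without overlap can therefore depend on the scaling. Among the genes with enough counts to be tested, IVP calves were all above MOET calves for 9.6% in liver and 8.16% in muscle, and MOET calves were all above IVP calves for 21.7% and 5.03%. PRSS2 and LOC100139916 lay in the first class in both organs, ENSBTAG00000052992 in muscle, and ENSBTAG00000009836 and ENSBTAG00000026768 in the second class in muscle. The quasi-likelihood test of edgeR at a false discovery rate (FDR) of 0.05 called 0.035% of genes between origins in liver (5 of 14290) and 0.467% in muscle (60 of 12854). Since the same contrast chose the 5 IDs, nothing is read from their place among these. The size of the gap is likewise a description, since the IDs were listed for it. For PRSS2 the lowest IVP liver was at 2390 times the floor of 3 counts, against 16.3 times for LOC112449459, the next ID in liver. In muscle the gap, taken from the highest MOET count, was 85.2 times for PRSS2, 16 for LOC100139916 and 9, from the floor, for ENSBTAG00000052992. With MOET calves higher it was 13.1 times for ENSBTAG00000009836 and 3.06 for ENSBTAG00000026768.

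**Figure D3:**
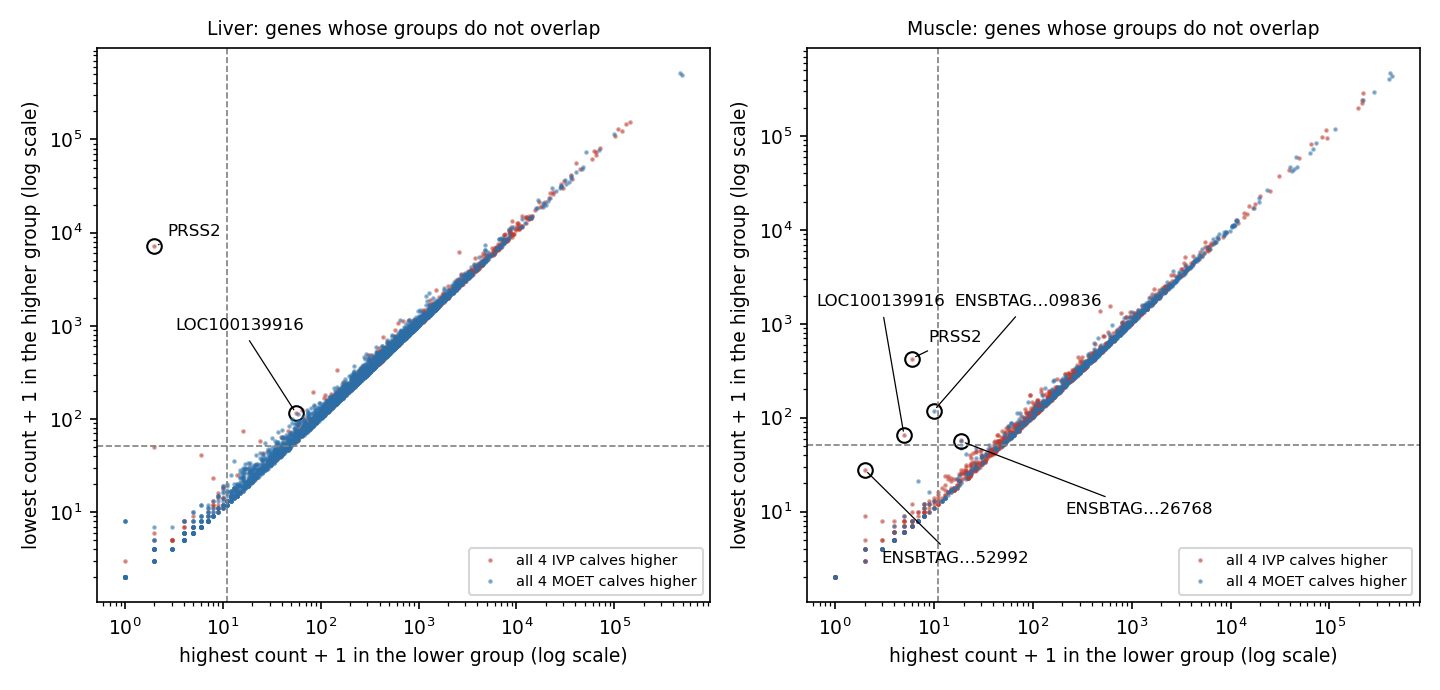
For every gene whose 2 origin groups do not overlap, the highest count plus 1 in the lower group (horizontal, log scale) against the lowest count plus 1 in the higher group (vertical, log scale), in liver (left) and muscle (right), red where IVP and blue where MOET calves are higher; circles mark the described genes and dashed lines the limits of 10 and 50 counts. The upper left field holds PRSS2 in liver, and PRSS2, LOC100139916 and ENSBTAG00000009836 in muscle.

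Muscle was also compared with liver within the calves that expressed each gene, a different contrast from the one that listed them, although the list drew on counts of both organs. It was tested for PRSS2 and LOC100139916, whose liver and muscle counts were both above those of MOET calves. The IVP counts compared here also served for the listing, so the test values are given as a description. Within the IVP group PRSS2 was lower in muscle than in liver, with muscle at 7.08%, 4.21%, 6.04% and 3.53% of the CPM in liver in calves 3208, 3209, 5833 and 5841. The difference lay in the same direction in 4 of 4 calves. These percentages and the permutation test below rest on library totals, whereas the fit scales libraries by TMM. On library totals the median log2 fold change of all genes, muscle over liver, was -0.64 in IVP calves, against -0.07 with TMM. The percentages therefore stand lower than the fit. The fitted log2 fold change of PRSS2, muscle over liver, was -3.80 (SE 0.253, FDR 5.10e-10 in edgeR's quasi-likelihood test over all genes). Organ differences were the rule: 77.0% of 15237 genes were called in IVP calves, 40.2% lower in muscle. The exact two-sided permutation test over the 4 paired calves gave p = 0.125, the smallest it can give with 4 pairs.

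LOC100139916 was also lower in muscle in the IVP calves. Muscle stood at 28.3%, 20.8%, 63.3% and 34.6% of the liver CPM, again on library totals, in calves 3208, 3209, 5833 and 5841. The TMM-scaled log2 fold change of LOC100139916 was -1.08 (SE 0.294, FDR 0.00310 in edgeR's test), with 4 of 4 calves lower in muscle and an exact permutation p = 0.125. The percentage was highest in calf 5833, whose liver count was the lowest of the 4.

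In MOET calves ENSBTAG00000026768 and ENSBTAG00000009836 are given without a test of organs, because their high counts in MOET muscle are what listed them. For ENSBTAG00000026768 muscle stood at 244%, 165%, 232% and 255% of the liver CPM in calves 3213, 3217, 3218 and 5932, above liver in each. ENSBTAG00000009836 was less even, at 195%, 88.4%, 143% and 553% in the same calves, lowest in calf 3217 and highest in calf 5932. The percentages rest on library totals, on which the median log2 fold change of all genes, muscle over liver, was -0.93 in MOET calves. With TMM it was -0.13, so whether calf 3217 lies below its liver can depend on the scaling. In IVP calves both stood lower in muscle than in liver, ENSBTAG00000026768 at 8.94% to 68.5% and ENSBTAG00000009836 at 0% to 13.0%, again in the group and organ that listed them. ENSBTAG00000052992, at 0 in every liver, gave no such percentage.

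**Figure D4:**
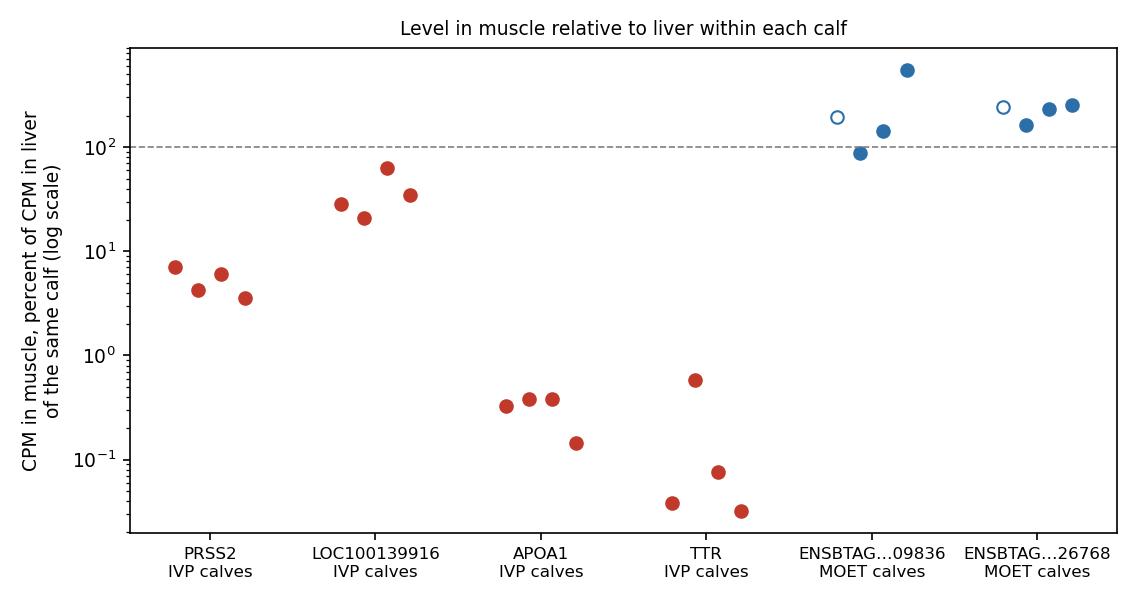
CPM in muscle as a percent of CPM in liver of the same calf, on a log scale, 1 point per calf, for PRSS2, LOC100139916 and the hepatocyte genes APOA1 and TTR in IVP calves (red) and for ENSBTAG00000009836 and ENSBTAG00000026768 in MOET calves (blue, open circle calf 3213). The dashed line is equal CPM on library totals. PRSS2 in muscle keeps 3.53% to 7.08% of its liver level, TTR at most 0.586%.

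Hepatocyte genes were read beside PRSS2 in muscle. Only 3 of 8 listed hepatocyte genes could be named in the table, and their summed muscle counts were 86 to 863 in IVP calves and 26 to 59 in MOET calves. The defining gene APOB was at 0 in all 8 muscle libraries. TTR, the carrier of thyroid hormone and retinol, did not overlap, at 57 to 801 counts with IVP and 8 to 18 with MOET origin, but was not called (FDR 0.0940 in edgeR's test). APOA1, the main protein of high-density lipoprotein, overlapped at 29 to 114 against 16 to 45 (FDR 0.339 in edgeR's test). Of these, DESeq2 called TTR. Relative to liver, TTR in IVP muscle stood at 0.0323% to 0.586% and APOA1 at 0.143% to 0.382%, whereas PRSS2 stood at 3.53% to 7.08%. Calf 3209 held the 801 TTR counts and had 426 PRSS2 counts in muscle, the lowest of the IVP calves. The part of liver RNA in the muscle counts of PRSS2 was not tested.

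Immune genes were read beside LOC100139916. In liver the IVP calves had 648 to 1573 counts of CCL5, a chemokine of T and NK cells, and the MOET calves 457 to 603, so neither CCL5 nor LOC100139916 overlapped. Of the 11 genes listed as partners of interleukin 32, 4 could be named, and their summed liver counts were 3354 to 4629 in IVP and 2589 to 2817 in MOET calves. The 3 nameable macrophage genes, C1QA, C1QB and C1QC, summed to 33851 to 51118 in IVP liver and 24312 to 34196 in MOET liver, which overlapped, but C1QB alone did not, at 14638 to 22507 against 10291 to 14116. Their log2 fold changes were 0.63 to 0.73. Among 3 nameable genes of antigen presentation, every IVP liver was above every MOET liver for BOLA-DMA, 345 to 403 against 281 to 336, and for BOLA-DMB, 969 to 1226 against 747 to 906, while B2M overlapped. In edgeR none of the 4 interleukin 32 partners, 3 macrophage genes or 3 antigen presentation genes was called in liver. Of them 3, 3 and 3 had an unadjusted p under 0.05 in edgeR, and DESeq2 called 2, 3 and 1. Over all genes in liver, 29.8% had such an unadjusted p, and DESeq2 called 11.6%. In muscle the interleukin 32 partners overlapped between origins, 766 to 1445 against 995 to 1129, as did CCL5, 17 to 167 against 12 to 21, while LOC100139916 did not. The part of immune cells in the counts of LOC100139916 was not tested.

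Of 8 listed muscle fibre genes 5 could be named, and edgeR called 0 of them between origins in muscle (FDR 0.0846 to 0.646). Of these, 2 had an unadjusted p under 0.05 in edgeR and 2, MYH7 and MYH2, were called by DESeq2. Over all genes in muscle, 19.8% had such an unadjusted p, and DESeq2 called 4.21%. MYH7, the slow fibre myosin, stood at 117311 to 404721 counts with IVP and 49789 to 93228 with MOET origin, and MYH2, a fast oxidative fibre myosin, at 287205 to 451978 against 163689 to 218599. MYLPF, a fast fibre light chain, did not overlap either, at 164870 to 282622 against 296913 to 329911. ACTA1, the actin of skeletal muscle, and TNNT3, a fast fibre troponin, overlapped. The part of fibre type in the muscle counts of the 5 IDs was not tested.

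Markers of a pancreatic source could not be read. None of the 25 listed acinar genes, none of the 5 islet genes and 1 of 14 genes of trypsin activation and inhibition, the lysosomal protease CTSB, were paired with an ID in the sources used here. Liver counts of CTSB were 11416 to 12151 with IVP and 9893 to 11222 with MOET origin, and CTSB overlapped in muscle at 2615 to 3222 against 3094 to 3314. The coverage of every list was below 80%, so the counts of list members given here describe the nameable genes only and not the whole lists.

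The other serine proteases that could be named did not share the split of PRSS2. PRSS1 and PRSS3 were not among them. PRSS53 counts in liver were 761 to 1027 for IVP and 731 to 870 for MOET, and its log2 fold change was 0.23 (SE 0.120, FDR 0.222 in edgeR's test). TMPRSS4, a membrane-bound protease, had 20 to 42 counts against 11 to 24 in liver and 0 to 1 in muscle. PRSS54, TMPRSS9 and the serine protease 58-like LOC112442302 had at most 8 counts in any library. Trypsins form a gene family of close copies. The methods name the counter but not its setting for reads that match several genes, so the split of reads between PRSS2 and other trypsin genes is uncertain. The same holds for LOC100139916, which lies between IL32 and LOC618541 in the RefSeq annotation of assembly ARS-UCD2.0.

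In that annotation PRSS2 lies among variable and constant segments of a T-cell receptor locus, and its nearest neighbour with an ID that could be named is EPHB6, 3 genes on. EPHB6, an Eph family receptor gene, overlapped between origins at 21 to 34 (IVP) and 23 to 39 (MOET) liver counts and had a log2 fold change of -0.10 (SE 0.279, FDR 0.821 in edgeR's test). KEL, the blood group protease gene 7 genes on, had 562 to 1046 against 347 to 559 counts in liver (log2 fold change 1.07, SE 0.275, FDR 0.125 in edgeR's test) and 0 in every muscle. TRPV5, a calcium channel gene, had at most 3 counts. Of the 10 nearest nameable neighbours of PRSS2, edgeR called 0 of the 9 tested in liver and 0 of 7 in muscle, with 4 and 1 at an unadjusted p under 0.05 and 2 and 0 called by DESeq2. Unadjusted, 29.8% of all genes passed in liver and 19.8% in muscle, and DESeq2 called 11.6% and 4.21%. For LOC100139916 the corresponding counts were 0 of 10 in liver and 0 of 9 in muscle, with 5 and 4 unadjusted and 4 and 2 in DESeq2, and the nearest nameable gene, ELOB, lay 16 genes away. The fitted log2 fold changes of the neighbours of PRSS2 in liver ran from -0.74 to 1.07, against 14.49 for PRSS2 itself. These neighbours lay 74 to 88 genes away on the side before PRSS2 and 3 to 33 genes away on the side after it. The adjacent protein-coding gene LOC786254 was paired with no ID, so the genes closest to PRSS2 were mostly not read.

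The genes most like each ID were sought by Pearson's r of log2 CPM over the 8 libraries of the organ with its higher mean. These values are descriptions, and for IDs split by origin they mainly follow that split. For PRSS2 in liver they were CCDC42 (r = 0.996), PYURF (0.991) and ENSBTAG00000011225 (0.985), yet the step of CCDC42 was far smaller, from 66 to 83 counts up to 193 to 214. For LOC100139916 they were RETREG2 (0.995), ENSBTAG00000009309 (0.990) and ENSBTAG00000033290 (0.988). For ENSBTAG00000052992 in muscle they were EPS8 (0.991), ENSBTAG00000030600 (0.991) and ENSBTAG00000010529 (0.987). ENSBTAG00000009836 and ENSBTAG00000026768, which overlapped between origins in liver, were closest there to ENSBTAG00000021842 (0.960) and to ENSBTAG00000016864 (0.971). At r of 0.95 or more, PRSS2 had 42 genes and ENSBTAG00000009836 had 1 gene of 12916 compared.

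The fold changes between origins kept their sign in each of 16 other ways of fitting them. Where the groups did not overlap, the listing had largely fixed the sign in advance, so only the sizes are described. For PRSS2 the fold changes ran from 14.13 to 16.29 in liver and from 7.51 to 10.76 in muscle. LOC100139916 ran from 2.23 to 2.68 in liver and from 4.97 to 7.52 in muscle, and ENSBTAG00000052992 from 6.83 to 8.51 in muscle. In muscle ENSBTAG00000009836 ran from -6.01 to -4.53 and ENSBTAG00000026768 from -2.88 to -2.30. In liver, where their groups overlapped, the same IDs ran from 0.64 to 1.92 and from 0.44 to 1.36.

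**Figure D5:**
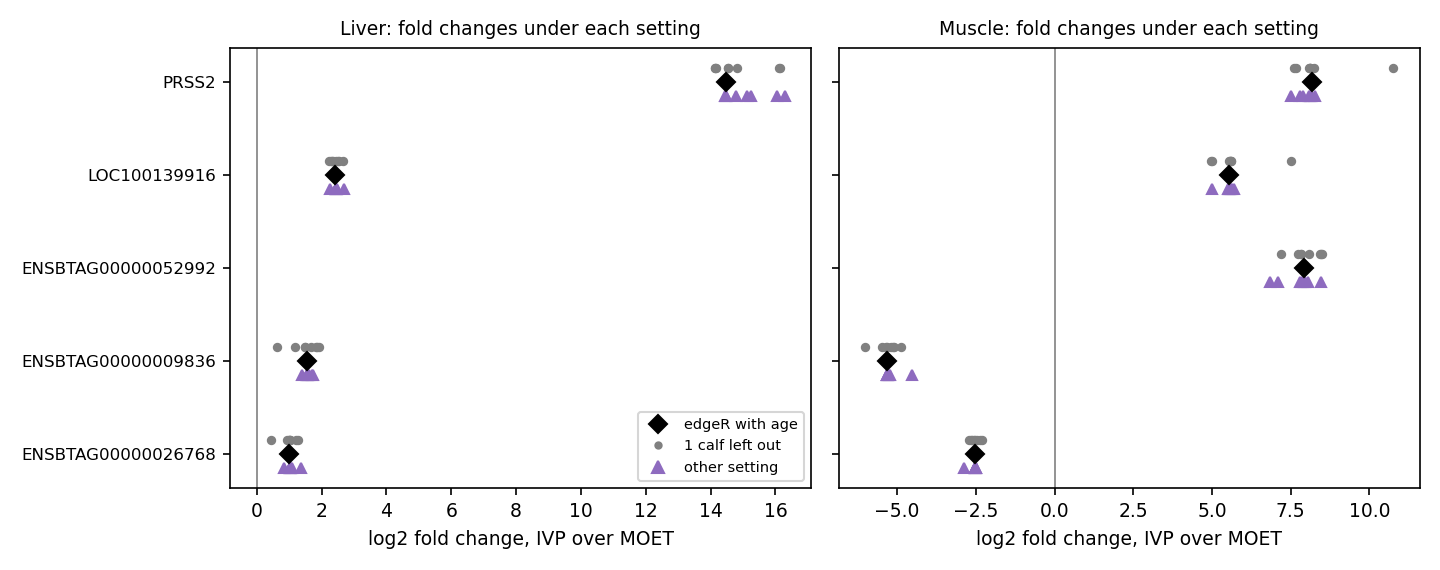
Log2 fold change, IVP over MOET, of each ID in liver (left) and muscle (right) in the edgeR fit with age (black diamond), with 1 calf left out (grey points) and in the other settings (purple triangles); ENSBTAG00000052992 has no value in liver, where it is at 0. PRSS2 ranges from 14.13 to 16.29 in liver. No ID crosses 0, which the listing had largely fixed where the groups do not overlap.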

How the data were processed

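RNA of liver and muscle from 8 calves was sequenced in 16 unstranded, polyadenylated libraries. The authors filtered reads with SOAPnuke, aligned them to bosTau9 with STAR 2.7, counted them per Ensembl gene with HTSeq and controlled for age with sva. Whether the deposited whole numbers precede that step is not given in the sources used here, and since calf 3213 deviates by less than counting noise they are treated as estimated counts. The design had assumed raw counts, and rounding changed no value. Labels do not say whether extractions were repeated, and each calf gave 1 library per organ.

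The 5 IDs, the gene lists and the tests were chosen with earlier results of these data known. Named are the 5 IDs, listed markers, the 5 nearest nameable genes on each side, family members, the 3 genes most alike, and genes on or just outside the criterion of 10 and 50 counts, the last chosen after their values were seen. Names came from the paper's supplementary tables (4163 IDs, of which 4158 were in RefSeq, ARS-UCD2.0), and 2 of the 5 IDs had one. No chromosome position is given, because this assembly is not bosTau9. Methylation data and sequences were not used here.

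Low genes were filtered with filterByExpr (minimum count 10, total 15), libraries scaled by TMM, and fits made in edgeR 4.0.16 (R 4.3.3) with age as covariate and Benjamini-Hochberg adjustment at 0.05. Origin was fitted in 8 libraries per organ and organ in all 16, calf 3213 included in both. CPM used library totals. Intervals are exact at 95%. Fits were tested on simulated data. Alternatives were RLE, library totals, no filter, no age, no age without calf 3213, and DESeq2 1.42.0. Others were only calves with the same parents, each calf left out, and calf as a block. Both libraries of a calf come from 1 animal, which is the pairing. Their deviations from the group means correlated between -0.15 and 0.279 (median 0.09), above 0.1 in 3 of 8 calves.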

Additional observations from a re-analysis of the deposited data

Results flagged for a closer look

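Of 20 groups of 4 calves examined with Dixon's test, 2 held a calf that was flagged. The chance rate of about 1 in 20 assumes continuous values and does not apply to counts this low. A group with all calves but 1 at 0 is always flagged, and a group at 0 throughout never is. In MOET liver PRSS2 had 1 count in calf 3213 and 0 in the others, and in MOET muscle ENSBTAG00000052992 had 1 count in calf 3213 and 0 in the others. Both are below the floor of 3 counts, and calf 3213 is the one that was not counted as a separate replicate.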

How the results depend on the processing

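The number of genes called between origins depended strongly on the setting. In liver it was 5 in edgeR with age, 17 without the filter, 2998 without age, 1588 in DESeq2 with age, 4657 in DESeq2 without age, 19 in the 4 calves with the same parents, and 1 to 2187 with 1 calf left out. In muscle the numbers were 60, 186, 1174, 468, 1619 and 21, and 6 to 350 with 1 calf left out. In liver the fit without calf 3213 and without age called 5 genes, as many as edgeR with age on all calves. The cause of these differences was not tested. Organ contrasts stayed within 1.5 times of 11735 and 12435 genes. With calf as a block (the pairing), they called 11746 and 12448 genes, and the log2 fold change, muscle over liver, was -3.75 for PRSS2 and -1.02 for LOC100139916 in IVP calves, which changed neither call. Over 14 alternatives PRSS2 ran from -4.34 to -3.54 (FDR at most 1.82e-07 in edgeR or DESeq2) and LOC100139916 from -1.63 to -0.91 (0.000100 to 0.0347). Library totals without scaling factors, added after seeing the data, moved the median of all genes to -0.16 between origins in liver and to -0.64 and -0.93 between organs. Genes neighbouring PRSS2 and LOC100139916, none called in edgeR with age, passed in 41 of 304 alternative values in liver and 9 of 255 in muscle. Over all genes the alternatives called 1 to 4657 in liver and 6 to 1619 in muscle. The share of all genes over the same values was not computed, so nothing is read from the neighbours that passed. With 3 separate MOET calves and counts of 0 to 5, levels below the floor were not detectable at this depth.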
